A study of Mus musculus with 5 samples.

Results

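The 10 genes described here are imprinted genes that control growth, namely H19, Igf2, Meg3, Dlk1, Peg3, Plagl1, Grb10, Cdkn1c, Mest and Ndn, and they were picked by name, as the rows of the raw count table that carry these symbols, out of 30046 features. All 10 were found, 8 as protein-coding genes and 2, H19 and Meg3, as long non-coding RNAs. Levels were compared between stromal cells of mouse bone marrow that descend from cells marked before birth by a Dlx5 driver (Dlx5-E12.5 cells, 3 libraries) or by an Fgfr3 driver (Fgfr3-E12.5 cells, 2 libraries). The comparison is thus between marrow stromal cells of perichondrial and of chondrocyte origin. By the study's tracing, the former lay mainly in the marrow of the shaft at postnatal day 21 and the latter mainly nearer the growth plate. Origin and place in the marrow therefore cannot be told apart here. The mice were Cxcl12(GFP/+); Dlx5(CreER/+); R26R(tdTomato/+) in the first group and carried Fgfr3-iCreER, an inducible transgene, in place of Dlx5(CreER/+) in the other. Both groups received tamoxifen once at embryonic day 12.5, which switched on tdTomato in cells using the driver and in their descendants, and both carried GFP in place of one Cxcl12 allele. Cells positive for tdTomato and bright for GFP were sorted from femurs at postnatal day 21, after the distal growth plates had been cut away, and each library came from pooled littermates of 1 genotype.

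In imprinted genes, the copy inherited from the mother or the copy inherited from the father is silenced by marks laid down in the germ line, chiefly DNA methylation at imprinting control regions. Many of them act on fetal growth, and paternally expressed members such as Igf2 tend to promote it, while maternally expressed members such as Cdkn1c tend to restrain it. Most are abundant in the embryo and decline after birth, and several are retained in stem and progenitor cells, including those of the skeleton and marrow. The counts analysed here do not separate the parental alleles, so they measure the level of each transcript and not its imprint.

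Total counts ranged from 22035650 to 32563758 in Dlx5-E12.5 libraries and from 56355203 to 58166285 in Fgfr3-E12.5 libraries, and levels are given as CPM, the count scaled to the library total, after TMM scaling. The floor of 3 counts, which covers counting error only, lay between 0.0516 and 0.136 CPM. The methods of the study state longer, paired reads on a newer sequencer for Dlx5-E12.5 libraries than for Fgfr3-E12.5 libraries, whereas the labels name the same sequencer for all, so read type and lineage cannot be told apart. Markers of CXCL12-abundant reticular (CAR) cells, the cell type on the labels, were present in every library, with a summed level of 31690 to 33460 CPM in Dlx5-E12.5 libraries and 13740 and 9219 CPM in Fgfr3-E12.5 libraries 2 and 3. Cxcl12 alone made up most of these sums, at means of 21337 CPM in Dlx5-E12.5 and 7248 CPM in Fgfr3-E12.5 libraries. By the thresholds given below, 6 of the 9 markers were higher in Dlx5-E12.5 cells, beside 22.5% of all features. Foxc1 was higher in Fgfr3-E12.5 cells, and Lepr and Pdgfrb were not called. Chondrocyte markers summed to between 177 and 183 CPM in Dlx5-E12.5 libraries against 3738 and 528 CPM in Fgfr3-E12.5 libraries. Col9a1, Matn1, Col10a1 and Ucma had no count in any Dlx5-E12.5 library. Of the 12 tested, 10 were higher in Fgfr3-E12.5 cells by the thresholds given below, beside 17.1% of all features. Of these 12 markers, 7 passed the filter on low counts only through the Fgfr3-E12.5 libraries and could be called in that direction alone. The uncalled markers were Sox9, at means of 117 CPM in Dlx5-E12.5 and 78.6 CPM in Fgfr3-E12.5 libraries, and Col11a1, at 47.5 and 53.0 CPM. Sox9 and Col11a1 made up most of the chondrocyte sum in Dlx5-E12.5 libraries. Osteoblast markers (4400 to 6361 CPM against 12970 and 16580), leukocyte markers (334 to 399 CPM against 1147 and 2445) and cell cycle genes (412 to 693 CPM against 1235 and 1567) were also higher in sum in Fgfr3-E12.5 libraries. Of the 10 osteoblast markers, 6 were higher in Fgfr3-E12.5 cells and 1, Phex, in Dlx5-E12.5 cells, beside 17.1% and 22.5% of all features. The other 3, among them Bglap2, were not called. Erythroid markers summed to 35140, 17200 and 22950 CPM in Dlx5-E12.5 libraries and 14410 and 21920 CPM in Fgfr3-E12.5 libraries, so the groups overlapped. In both Fgfr3-E12.5 libraries and in Dlx5-E12.5 library 1, the erythroid sum was above the CAR marker sum. Fewer cells of a type and less RNA per cell cannot be told apart in such bulk libraries, and the part of these other cell types in the results below was not tested except where a value is given.

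Of the 10 genes, 2 were higher in Fgfr3-E12.5 cells (Cdkn1c and Dlk1), 4 were higher in Dlx5-E12.5 cells (H19, Igf2, Meg3 and Peg3) and 4 passed neither way. A gene was called when edgeR's quasi-likelihood test gave it an adjusted p-value below 0.05 and its log2 fold change lay beyond -1 or 1. The same thresholds called 17.1% of the 16708 features tested as higher in Fgfr3-E12.5 cells and 22.5% as higher in Dlx5-E12.5 cells. Since 39.6% of all features were called in either direction, a large difference in a single gene was common in this comparison. The median log2 fold change of the 10 genes, Fgfr3-E12.5 over Dlx5-E12.5 as throughout, was -0.63, beside -0.02 over all features tested. Dlk1 passed the filter on low counts only through the Fgfr3-E12.5 libraries, so its presence in these counts depended on the group in which it was high. Called genes expressed from the maternal copy were found in both directions, with H19 and Meg3 higher in Dlx5-E12.5 cells and Cdkn1c higher in Fgfr3-E12.5 cells. Of those expressed from the paternal copy, Igf2 and Peg3 were higher in Dlx5-E12.5 cells. Dlk1 (paternal) was higher in Fgfr3-E12.5 cells but could be called in that direction alone, so nothing is read from it on this point.

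**Figure D1:**
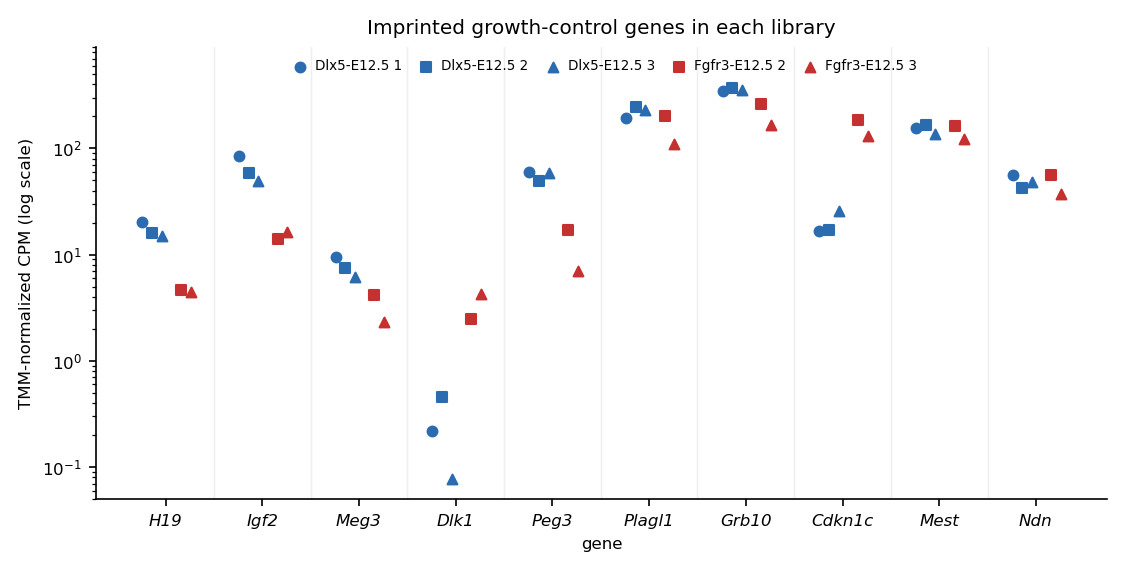
Level of each of the 10 genes in every library, in TMM-scaled CPM on a log scale, with 1 point per library, blue for Dlx5-E12.5 and red for Fgfr3-E12.5, and a shape for each replicate number. The points of the 2 groups do not overlap in 7 of the 10 genes, near the 71.2% of all features tested, and those of Plagl1, Mest and Ndn do.

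The members on distal chromosome 7 were described first, because they lie within a single imprinted region and moved in opposite directions. Igf2 (ENSMUSG00000048583, GRCm38 chromosome 7, 142650766 to 142666816, minus strand) encodes insulin-like growth factor 2, the main fetal growth factor of the family. Its level was 84.1, 58.1 and 49.4 CPM in Dlx5-E12.5 libraries 1, 2 and 3, and 14.0 and 16.3 CPM in Fgfr3-E12.5 libraries 2 and 3. Every Dlx5-E12.5 library was above both Fgfr3-E12.5 libraries, and Igf2 was 4.22-fold higher in Dlx5-E12.5 cells, which is -2.08 on the log2 scale with a standard error of 0.26 and an adjusted p-value of 0.00081 in edgeR's test. H19 (ENSMUSG00000000031, 142575529 to 142578143, minus strand), a non-coding RNA made from the maternal copy and regulated by the same control region as Igf2, followed it closely. H19 measured 20.2, 15.9 and 14.9 CPM in Dlx5-E12.5 libraries and 4.65 and 4.49 CPM in Fgfr3-E12.5 libraries. The Fgfr3-E12.5 libraries were near equal and both below every Dlx5-E12.5 library, and the log2 fold change was -1.90 with a standard error of 0.24 and an adjusted p-value of 0.00076. Counts ranged from 269 to 640 for H19 and from 832 to 2667 for Igf2. Both genes kept their call under each alternative in which they could be tested, at log2 fold changes from -2.26 to -1.36 for H19 and from -2.49 to -1.49 for Igf2.

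H19 also carries a microRNA in its first exon, miR-675, on the same strand. Its 84-base hairpin lies wholly in exonic sequence of H19 and takes up 3.42% of the exonic bases of the gene, at 142577064 to 142577147. The mature forms are shown, from RefSeq on GRCm38.p6, because they are the known processed product of an H19 transcript that was lower in Fgfr3-E12.5 cells, with the seed (bases 2 to 8) in capitals. These libraries do not measure mature microRNAs, so no level is given.
mmu-miR-675-5p: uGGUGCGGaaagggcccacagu
mmu-miR-675-3p: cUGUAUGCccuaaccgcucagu

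Igf2 has several promoters, and RefSeq gave 4 of them, of which the one richest in CpG dinucleotides, the bases that DNA methylation acts on, is shown over the 250 bases before its start (GRCm38.p6, chr7:142658805-142659054, minus strand). It held 22 CpG, beside a median of 6 in 32851 promoters of this length, and 1 match to the GC box GGGCGG, which is in capitals on the strand where it reads CCGCCC and occurs on either strand in 32.7% of promoters.
Igf2 promoter: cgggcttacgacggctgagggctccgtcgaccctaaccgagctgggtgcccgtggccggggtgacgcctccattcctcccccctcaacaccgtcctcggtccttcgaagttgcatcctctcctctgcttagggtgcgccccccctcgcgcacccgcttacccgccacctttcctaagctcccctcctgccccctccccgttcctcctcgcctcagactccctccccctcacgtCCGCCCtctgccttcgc
The other 3 Igf2 promoters held 1, 10 and 6 CpG. Gene-level counts do not tell which of these promoters was in use in either lineage. Of the exonic bases of Igf2, 62.8% are shared with the readthrough gene Gm49394 on the same strand, which was not analysed here, so reads there could belong to either gene model.

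Cdkn1c (ENSMUSG00000037664, chromosome 7, 143458339 to 143461050, minus strand), which encodes the cyclin-dependent kinase inhibitor p57, lies in the adjacent domain of the same chromosome arm and moved the other way. It was at 16.6, 17.2 and 25.9 CPM in Dlx5-E12.5 libraries and at 187 and 130 CPM in Fgfr3-E12.5 libraries. The lowest Fgfr3-E12.5 library was thus far above the highest Dlx5-E12.5 library, and Cdkn1c was 7.96-fold higher in Fgfr3-E12.5 cells (log2 fold change 2.99, standard error 0.26, adjusted p = 0.00016 by edgeR). This was the smallest adjusted p-value of the 10 genes, and the log2 fold change stayed between 2.29 and 3.26 under all 16 alternatives, each of which called it. An annotated antisense gene, Gm44732, covers 30.7% of the exonic bases of Cdkn1c, with 79 and 158 counts in Fgfr3-E12.5 libraries against 11098 and 7797 for Cdkn1c, and no count in Dlx5-E12.5 libraries. The strand setting of the counting is not given in the sources used here, so sense and antisense reads may not have been separated. Prehypertrophic chondrocytes are a known site of p57, and the chondrocyte marker sum was 7.08 times as high in Fgfr3-E12.5 library 2 as in library 3, beside 1.44 times for Cdkn1c, and the part of chondrocytes in this result was not tested. Over the 5 fits that left out a library each, the log2 fold change ranged from 2.74 to 3.26.

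Between these genes, Kcnq1ot1, the paternally expressed antisense RNA that silences Cdkn1c on the same chromosome copy, had a level of 119, 135 and 120 CPM in Dlx5-E12.5 libraries and 41.2 and 18.4 CPM in Fgfr3-E12.5 libraries. It was higher in Dlx5-E12.5 cells (log2 fold change -2.06, standard error 0.34, adjusted p = 0.0025 by edgeR), opposite in direction to Cdkn1c, but its call was lost after trends on GC content and length were removed (-0.40), and it was -2.72 without Fgfr3-E12.5 replicate 2. With the strand setting not given, reads from the other strand, where Kcnq1 lies, may be included. Long non-coding genes leaned toward Dlx5-E12.5 cells in this data set as a whole, with 36.7% of 615 lincRNA, antisense and sense intronic genes called higher there and 9.92% lower, against 11.2% and 19.3% of protein-coding genes. H19, Meg3 and Kcnq1ot1 are among those long non-coding genes. Of the neighbours, in a window drawn after the values were seen, Cd81 (-1.23), Mrpl23 (-3.65) and the pseudogene Gm7290 (-8.62) were also higher in Dlx5-E12.5 cells. Lsp1 (1.72), Tspan32 (1.69) and Tnfrsf23 (1.20) were higher in Fgfr3-E12.5 cells. Ctsd (0.40), Tssc4 (0.33), Slc22a18 (0.46) and Nap1l4 (0.41) were not called, nor were R74862 (0.27), Cars (0.16), Tnfrsf26 (0.81) and Tnfrsf22 (1.06). The region thus held called and uncalled genes, and the direction of the calls changed within it more than once.

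**Figure D2:**
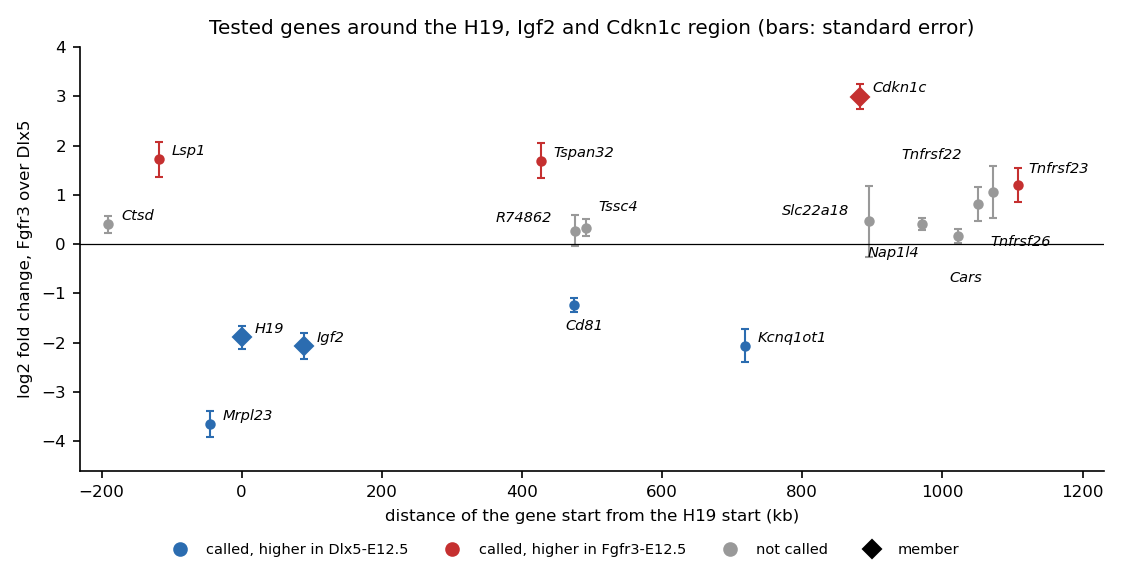
Log2 fold change (Fgfr3-E12.5 over Dlx5-E12.5) with its standard error for tested genes around H19, Igf2 and Cdkn1c, against the distance of each gene start from the H19 start in kilobases. H19 at -1.90 and Igf2 at -2.08 sit next to each other below 0, Kcnq1ot1 at -2.06 lies further along, and Cdkn1c at 2.99 lies 883 kilobases from H19. A pseudogene and the antisense gene inside Cdkn1c are not drawn.

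The ratio of 2 genes within a library does not depend on how the library was scaled, and 3 such ratios were compared. H19 counts were 0.240, 0.274 and 0.302 of Igf2 counts in Dlx5-E12.5 libraries and 0.332 and 0.276 in Fgfr3-E12.5 libraries. These ranges overlapped, and the mean log2 ratio differed by 0.16 (exact two-sided permutation test over the 5 libraries, p = 0.4). The ratio of Igf2 to Cdkn1c was 5.06, 3.37 and 1.91 in Dlx5-E12.5 libraries and 0.0750 and 0.125 in Fgfr3-E12.5 libraries. Igf2 thus had more counts than Cdkn1c in every Dlx5-E12.5 library and fewer in both Fgfr3-E12.5 libraries, a difference of -5.04 in the mean log2 ratio. The exact permutation p, taken as 2 times the smaller tail, was 0.2. That is the smallest this form of the test allows with 10 possible splits, so it cannot pass 0.05 for any ratio.

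**Figure D3:**
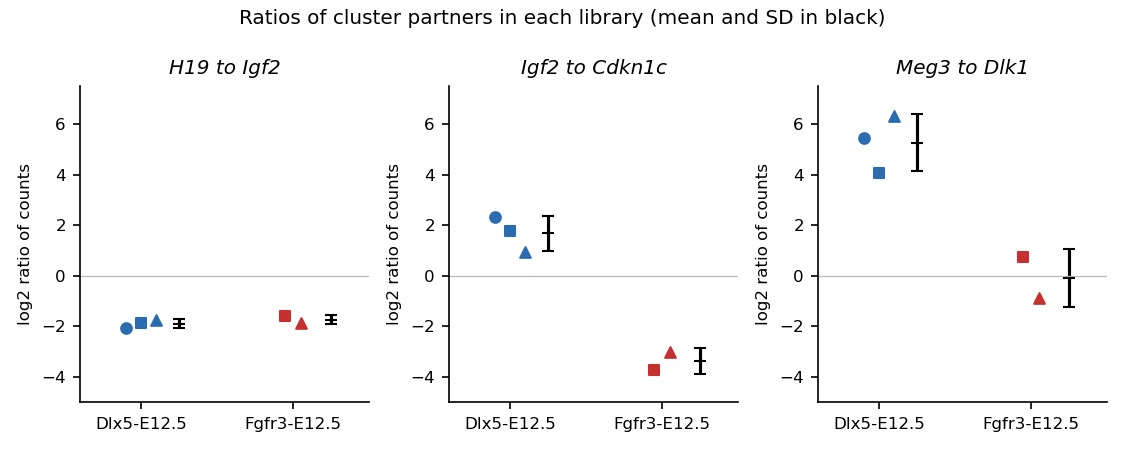
Log2 ratio of the counts of partner genes for H19 to Igf2, Igf2 to Cdkn1c, and Meg3 to Dlk1, with 1 point per library and the group mean and SD in black. The H19 to Igf2 points of both groups lie between -2.06 and -1.59, whereas the groups are apart in the other panels. The Meg3 to Dlk1 ratios divide by 7, 10 and 2 Dlk1 counts in Dlx5-E12.5 libraries.

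On chromosome 12, Dlk1 and Meg3 form another imprinted cluster, in which Dlk1 is expressed from the paternal copy and Meg3 from the maternal copy. Dlk1 (ENSMUSG00000040856, 109452823 to 109463336, plus strand) encodes a transmembrane protein related to Notch ligands that restrains adipocyte differentiation. It had 7, 10 and 2 counts in Dlx5-E12.5 libraries, or 0.221, 0.454 and 0.0778 CPM, and 148 and 256 counts in Fgfr3-E12.5 libraries, or 2.49 and 4.27 CPM. Dlk1 was therefore close to the floor in Dlx5-E12.5 cells and low in both groups, and its 13.6-fold higher level in Fgfr3-E12.5 cells rests on 19 counts in Dlx5-E12.5 libraries together (log2 fold change 3.77, standard error 0.66, adjusted p = 0.0033 by edgeR). The estimate was 4.41 without Dlx5-E12.5 replicate 2, which held most of those counts. Leaving out either Fgfr3-E12.5 library removed Dlk1 from the test, because it then reached the minimum level in a single library.

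Meg3 (ENSMUSG00000021268, 109541001 to 109571726, plus strand), a nuclear non-coding RNA, measured 9.53, 7.54 and 6.18 CPM in Dlx5-E12.5 libraries and 4.12 and 2.32 CPM in Fgfr3-E12.5 libraries. The groups did not overlap, but the Fgfr3-E12.5 libraries differed 1.78-fold from each other. Its log2 fold change was -1.27 with a standard error of 0.37 and an adjusted p-value of 0.0255 by edgeR, so Meg3 was called higher in Dlx5-E12.5 cells. That call was the least firm of the 6, since it was lost in 6 of 14 alternatives. Among them, the adjusted p was 0.0618 without Dlx5-E12.5 replicate 1, 0.0679 without Dlx5-E12.5 replicate 2 and 0.101 without Fgfr3-E12.5 replicate 3, and the log2 fold change was -0.45 (adjusted p = 0.27) once trends on GC content and length were removed. Meg3 counts were 43.1, 16.6 and 79.5 times the Dlk1 counts in Dlx5-E12.5 libraries and 1.66 and 0.543 times in Fgfr3-E12.5 libraries. The difference in the mean log2 ratio was -5.34 (exact permutation p = 0.2, the smallest that form of the test allows). In Dlx5-E12.5 libraries these ratios divide by 7, 10 and 2 Dlk1 counts, the last below the floor of 3. Dlk1 also passed the filter only through the Fgfr3-E12.5 libraries, so no conclusion is drawn from this ratio. Of the other genes of this cluster, Rian, a non-coding RNA downstream of Meg3, had 52, 25 and 19 counts against 26 and 30, passed the filter only through Dlx5-E12.5 libraries and was not called (log2 fold change -1.32, adjusted p = 0.066 by edgeR), and Dio3, a thyroid hormone deiodinase, had 20, 19 and 9 counts against 4 and 0 and was too low to test.

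The promoters of Dlk1 (chr12:109452573-109452822, plus strand) and Meg3 (chr12:109540746-109540995, plus strand) are set side by side because these cluster partners differed in direction, as the 250 bases before the first RefSeq start on GRCm38.p6. Capitals mark TATAAA, which reads TTTATA on the other strand and occurs in 12.4% of promoters.
Dlk1 promoter: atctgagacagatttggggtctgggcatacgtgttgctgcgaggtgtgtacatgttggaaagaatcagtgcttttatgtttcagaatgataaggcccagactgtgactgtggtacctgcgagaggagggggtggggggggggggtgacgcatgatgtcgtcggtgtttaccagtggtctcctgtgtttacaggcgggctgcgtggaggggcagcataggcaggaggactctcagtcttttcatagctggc
Meg3 promoter: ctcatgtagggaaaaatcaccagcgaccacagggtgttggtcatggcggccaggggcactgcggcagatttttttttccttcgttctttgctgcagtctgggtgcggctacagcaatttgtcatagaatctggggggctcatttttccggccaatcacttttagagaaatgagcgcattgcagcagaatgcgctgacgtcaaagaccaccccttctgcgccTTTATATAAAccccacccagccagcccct
The Meg3 window held overlapping TATAAA matches on both strands close to the start and 10 CpG, while the Dlk1 window held no match and 8 CpG. Neither window held the GC box.

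Peg3 and Plagl1 encode zinc finger transcription factors made from the paternal copy, and only the former was called. Peg3 (ENSMUSG00000002265, chromosome 7, 6703892 to 6730431, minus strand), which acts in p53 and tumour necrosis factor signalling and in maternal behaviour, measured 59.6, 49.7 and 58.1 CPM in Dlx5-E12.5 libraries and 17.2 and 7.03 CPM in Fgfr3-E12.5 libraries. The Dlx5-E12.5 libraries lay within 1.20-fold of each other, whereas the Fgfr3-E12.5 libraries, both lower, differed 2.44-fold. Peg3 was 4.62-fold higher in Dlx5-E12.5 cells, or -2.21 in log2 units, with a standard error of 0.38 and an edgeR adjusted p of 0.0030, and it was -2.95 without Fgfr3-E12.5 replicate 2 and -1.67 without Fgfr3-E12.5 replicate 3, called in both cases. Among the Fgfr3-E12.5 libraries, the CAR marker sum was likewise higher in library 2 than in library 3, by 1.49-fold. Among the Dlx5-E12.5 libraries its order, 31690, 33460 and 33010 CPM, was the reverse of that of Peg3. Its promoter (GRCm38.p6, chr7:6730420-6730669, minus strand) is shown because Peg3 had the largest fold of the members higher in Dlx5-E12.5 cells, and none of the searched motifs was in it, so no base is in capitals.
Peg3 promoter: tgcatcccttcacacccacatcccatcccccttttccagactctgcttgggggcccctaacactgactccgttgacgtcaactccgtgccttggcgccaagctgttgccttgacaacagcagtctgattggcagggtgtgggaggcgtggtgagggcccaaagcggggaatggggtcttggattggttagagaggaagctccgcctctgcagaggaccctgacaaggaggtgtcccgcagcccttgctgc
It held 8 CpG in these 250 bases.

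Plagl1 (ENSMUSG00000019817, chromosome 10, 13060504 to 13131694, plus strand), known as an activator of other imprinted genes including Igf2, measured 193, 245 and 230 CPM in Dlx5-E12.5 libraries and 200 and 110 CPM in Fgfr3-E12.5 libraries. Fgfr3-E12.5 library 2 lay within the Dlx5-E12.5 range and library 3 below it, and the difference of -0.52 on the log2 scale (standard error 0.26) had an adjusted p-value of 0.14 by edgeR. Plagl1 was not called under any of 16 alternatives, at values from -0.97 to -0.12. Grb10 (ENSMUSG00000020176, chromosome 11, 11930508 to 12038683, minus strand) encodes an adaptor that binds the insulin and IGF1 receptors and dampens their signalling. It was at 350, 370 and 354 CPM in Dlx5-E12.5 libraries and 261 and 168 CPM in Fgfr3-E12.5 libraries, with no overlap, as in 71.2% of all features. Its log2 value of -0.74, with a standard error of 0.21 and an edgeR adjusted p of 0.022, passed the threshold on p, as 28.3% of features did in that direction, but not the one on size. Without Fgfr3-E12.5 replicate 2 it passed both (-1.06, adjusted p = 0.0022).

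Mest and Ndn differed little between the lineages. Mest (ENSMUSG00000051855, chromosome 6, 30723547 to 30748465, plus strand), which encodes a hydrolase-like protein of the endoplasmic reticulum linked to growth of mesodermal and fat tissue, measured 156, 165 and 135 CPM in Dlx5-E12.5 libraries and 161 and 123 CPM in Fgfr3-E12.5 libraries. Ndn (ENSMUSG00000033585, chromosome 7, 62346569 to 62350262, plus strand), which encodes necdin, a growth suppressor with a single exon, measured 56.7, 42.4 and 48.7 CPM against 56.8 and 37.6 CPM. In both genes the Fgfr3-E12.5 libraries fell on either side of the Dlx5-E12.5 mean. The log2 fold changes were -0.10 with a standard error of 0.17 for Mest (adjusted p = 0.65) and -0.06 with a standard error of 0.22 for Ndn (adjusted p = 0.83) by edgeR, and leaving out a library each moved them between -0.27 and 0.11 and between -0.36 and 0.24. The sign of Ndn also turned with scaling by library size alone (0.04). For Mest, 23.1% of its exonic bases are shared with Copg2 on the opposite strand.

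Scaled to exon length, to allow levels of different genes to be set against each other, the order of the genes changed most at Cdkn1c. In Dlx5-E12.5 cells, Grb10 had the highest level at 39.4 ± 1.15 CPM per kilobase (SD, n = 3), next to Mest at 38.5 ± 3.84, and these overlapped. Plagl1 followed at 28.5 ± 3.40, and then Ndn at 13.3, Igf2 at 11.2, Cdkn1c at 9.77 and H19 at 6.91 CPM per kilobase, each overlapping with the next. Peg3 at 4.19, Meg3 at 0.428 and Dlk1 at 0.0444 CPM per kilobase came last. In Fgfr3-E12.5 cells, Cdkn1c led with 77.7 ± 19.6 CPM per kilobase (SD, n = 2), above Mest at 35.9 ± 6.88, and so moved from the sixth place to the first. Grb10 at 23.6, Plagl1 at 19.9 and Ndn at 12.8 CPM per kilobase followed, each overlapping with the next, and Igf2 at 2.65, H19 at 1.86, Peg3 at 0.908, Dlk1 at 0.598 and Meg3 at 0.178 CPM per kilobase made up the rest. Peg3 and Dlk1 overlapped there, and Dlk1 and Meg3 had exchanged places. The length of Meg3, 18089 exonic bases over all isoforms, lowers its value on this scale if a shorter isoform prevailed.

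**Figure D4:**
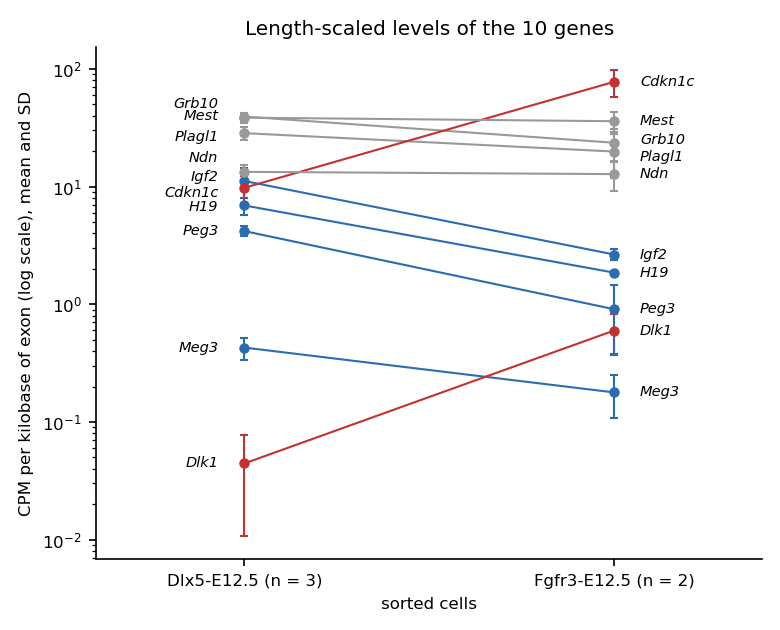
Mean length-scaled level of each gene in CPM per kilobase of exon, on a log scale, in Dlx5-E12.5 (n = 3) and Fgfr3-E12.5 (n = 2) cells, with bars of 1 SD and a line joining the same gene. The Cdkn1c line climbs from 9.77 to 77.7 and crosses those of Mest, Grb10, Plagl1, Ndn and Igf2, and the Dlk1 line crosses that of Meg3.

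The genes were also compared by the shape of their levels over the 5 libraries, as the root mean square difference of mean-centred log2 CPM, for which a small value means a like pattern. Among the members, the closest pairs were Plagl1 and Grb10 (0.15), H19 and Igf2 (0.16) and Mest and Ndn (0.19). Among 16707 features, H19 was the third closest to Igf2, after Gm4811 (0.13) and Npm3 (0.15). The features closest to H19 were Med1 (0.06), Pabpc1 (0.08) and Npc2 (0.10), and those closest to Cdkn1c were Ttc39c (0.10), Igfbp7 (0.16) and Smarcd3 (0.17). Dlk1 had the most distant neighbours, Trnp1 (0.34), Amph (0.36) and Gm6277 (0.42). Peg3 was closest to Gm15712 (0.08), C1s2 (0.11) and 4930518I15Rik (0.11), and Meg3 to Tmtc3 (0.06), Gbp2b (0.07) and Gm48194 (0.09). The uncalled members had neighbours within 0.08, namely Pcdhb20, Pcdhb21 and Ankrd26 for Plagl1, Nicn1, Irf9 and Sdhaf3 for Grb10, Lipa, Ttf1 and Smim15 for Mest, and Calr, Cep192 and Itpripl2 for Ndn. The neighbours were picked on these same libraries, so their differences resemble those of the members partly by construction, at -1.96 for Med1, 3.01 for Ttc39c and -2.42 for Gm15712, while Trnp1, at 5.13, was well above Dlk1 at 3.77.

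Other imprinted genes were read beside the members, from lists of 22 paternally and 23 maternally expressed genes. The median log2 fold change of the 14 paternally expressed genes that could be tested was -0.39. Of them, 1 was higher in Fgfr3-E12.5 cells, beside 17.1% of all features, and 5 in Dlx5-E12.5 cells, beside 22.5%. The former was Slc38a4, an amino acid transporter, at 5.62, 8.27 and 6.11 CPM against 32.3 and 28.6 CPM (4.58-fold, adjusted p = 0.00036 by edgeR). The latter were Peg12 (-2.39), Kcnq1ot1, Airn (-1.82), the RNA that silences Igf2r on the paternal copy, Peg10 (-1.72), a retrotransposon-derived gene, and Peg13 (-1.26). Kcnq1ot1 and Airn are antisense genes and Peg13 is a sense intronic gene. Of all tested genes of these types, 32.4% and 75.8% were called higher in Dlx5-E12.5 cells, against 11.2% of protein-coding genes. Against the shares over all features given above, 15 maternally expressed genes were tested, with a median of -0.41. Of them, Gnas was higher in Fgfr3-E12.5 cells, and Igf2r (-1.32) and Cd81 (-1.23) were higher in Dlx5-E12.5 cells. Gnas, which encodes the stimulatory G protein subunit used by the parathyroid hormone receptor, was at 179, 174 and 219 CPM against 1142 and 1103 CPM (2.56, standard error 0.16, adjusted p = 5.2e-05 by edgeR). It is imprinted in some tissues only, and its gene-level counts pool several promoters. Of the other imprinted genes, 20 of 29 tested were not called, as were 10096 of all 16708 features tested. Examples are H13 (-0.52), Nnat (0.02), Snrpn (0.27) and Asb4 (0.22).

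**Figure D5:**
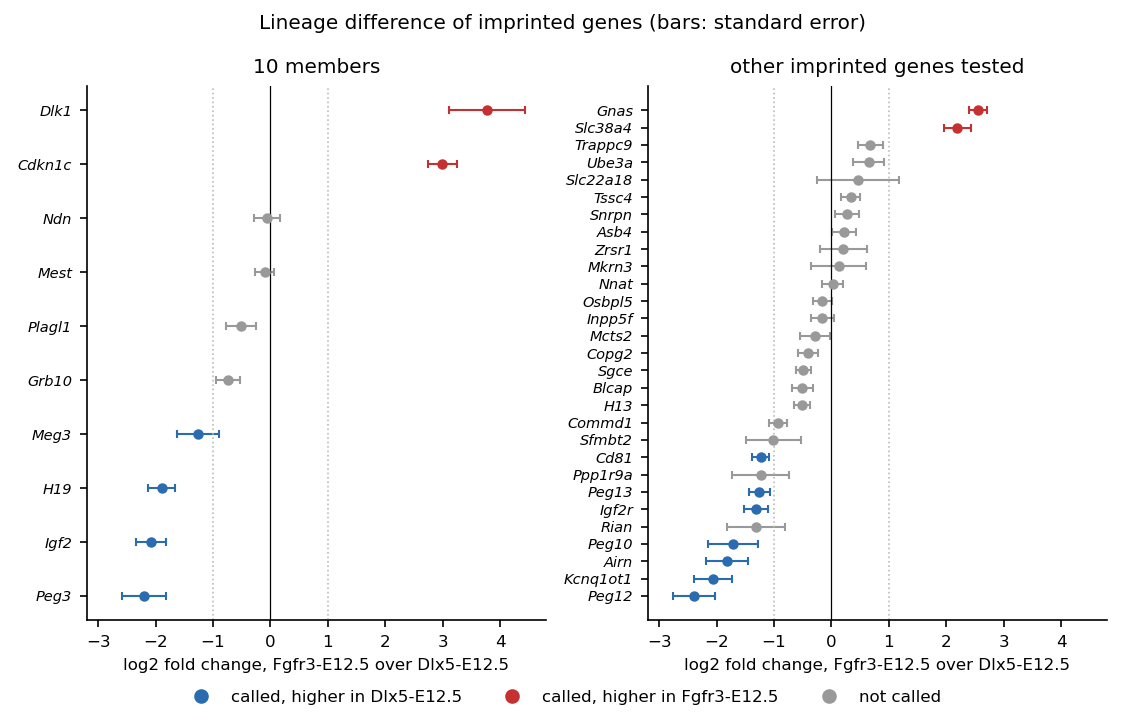
Log2 fold change (Fgfr3-E12.5 over Dlx5-E12.5) with its standard error from edgeR, for the 10 genes on the left and 29 other imprinted genes on the right, with dotted lines at the thresholds of -1 and 1 and grey points not called. Dlk1 at 3.77 and Cdkn1c at 2.99 stand above the threshold, Meg3, H19, Igf2 and Peg3 below it, and Mest and Ndn beside 0. Gnas at 2.56 and Slc38a4 are the called genes above 1 in the other panel.

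Of 15 genes of the IGF pathway around Igf2 and Grb10, 9 were higher in Dlx5-E12.5 cells, beside 22.5% of all features. In Fgfr3-E12.5 cells 3 were higher, beside 17.1% of all features, and the median log2 fold change was -1.32. Igf1, the postnatal growth factor, was at 1869, 1820.2 and 1709.5 CPM against 689 and 274 CPM (-1.90, adjusted p = 0.0058 by edgeR), or -2.68 without Fgfr3-E12.5 replicate 2. The receptors moved with the ligands: Igf1r (-1.90), which carries the signal of IGF1 and IGF2, Igf2r (-1.32), which removes IGF2, and Insr (-1.07), the insulin receptor, were all higher in Dlx5-E12.5 cells. The Insr call was lost in 9 alternatives, with adjusted p-values of 0.0614 and 0.0618 without Dlx5-E12.5 replicates 2 and 3 and of 0.0591 and 0.103 without Fgfr3-E12.5 replicates 2 and 3. Of the adaptors, Irs1 (-1.74) was higher in Dlx5-E12.5 cells and Irs2 (1.02) in Fgfr3-E12.5 cells, but Irs2 lost its call in 9 alternatives, at 0.90 and 0.97 without Dlx5-E12.5 replicates 1 and 2 and 0.74 without Fgfr3-E12.5 replicate 2. Among proteins that bind IGF messenger RNA, Igf2bp1 (-2.74) and Igf2bp3 (2.11) moved in opposite directions, and Igf2bp2 (-0.05) was not called. Of the secreted binding proteins, Igfbp2 (-3.29), Igfbp5 (-2.21) and Igfbp6 (-2.17) were higher in Dlx5-E12.5 cells, and Igfbp7 (2.79) was higher in Fgfr3-E12.5 cells. Igfbp3 (-0.90) and Igfbp4 (0.99) passed the threshold on p but not the one on size. Igfbp4 was at means of 2742 CPM in Dlx5-E12.5 and 5451 CPM in Fgfr3-E12.5 libraries. Igfbp6, with at most 59 counts in a library, passed the filter only through Dlx5-E12.5 libraries and lost its call without Fgfr3-E12.5 replicate 2 (adjusted p = 0.143) and replicate 3 (adjusted p = 0.0799). Igf1 and Igfbp5 are abundant in CAR cells, whose marker sum, most of it Cxcl12, differed in the same direction (-1.54 on the log2 scale). Of the markers in that sum, Foxc1 (2.93) was called the other way, and Lepr (-0.84) and Pdgfrb (-0.12) were not called. The part of CAR cells in the values of Igf1 and Igfbp5 was not tested.

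The cell cycle partners of Cdkn1c were compared next. Of 12 genes, 4 were higher in Fgfr3-E12.5 cells and 1 in Dlx5-E12.5 cells, beside 17.1% and 22.5% of all features. The 4 were the cyclins Ccne1 (1.12), Ccne2 (1.47) and Ccna2 (2.16) and the transcription factor E2f1 (3.41). The gene higher in Dlx5-E12.5 cells was the inhibitor Cdkn1b (-1.75). Cdkn1b, the closest relative of Cdkn1c, was at 19.5, 21.2 and 17.3 CPM in Dlx5-E12.5 libraries and 5.76 CPM in each Fgfr3-E12.5 library, so these inhibitors differed in direction. Cdkn1a (-0.43), the remaining member of that family, was not called, nor were Cdk2 (0.48), Cdk4 (0.18) and Cdk6 (-0.51). Cdkn1c and proliferation genes were thus both higher in Fgfr3-E12.5 libraries. There, 8 of 10 cell cycle markers were higher, beside 17.1% of all features, and their sum differed by 1.43 on the log2 scale. Whether Cdkn1c and these genes were higher in the same cells cannot be read from bulk counts.

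Factors that keep imprints or drive fetal growth were the last list. Of 9 tested, 4 were higher in Fgfr3-E12.5 cells and 2 in Dlx5-E12.5 cells, beside 17.1% and 22.5% of all features. Ctcf, which insulates Igf2 from its enhancers on the maternal copy, was at 23.6, 24.2 and 23.7 CPM against 98.4 and 101 CPM (2.07, standard error 0.13, adjusted p = 4.6e-05 by edgeR). Trim28 (1.34), the corepressor that zinc finger proteins bring to imprinted regions, and Dnmt1 (1.22) and Uhrf1 (1.60), which copy DNA methylation at replication, rose with it. The zinc finger proteins that recognise imprinted regions, Zfp57 (-1.34) and Zfp445 (-1.13), were higher in Dlx5-E12.5 cells, although Zfp445 was -0.98 without Fgfr3-E12.5 replicate 3. Trim28 was 0.65 once trends on GC content and length were removed and was then not called. Lin28a (0.06) was not called, and Hmga2, a fetal growth regulator, had 2, 6 and 4 counts against 22 and 56 and was too low to test.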

How the data were processed

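RNA of sorted cells was amplified with a SMART-Seq kit and sequenced as 5 libraries. The authors aligned reads to mm10 with TopHat2 2.0.13 and Bowtie2 2.2.1, per the labels, and deposited raw counts per feature. HTSeq is also named, and its strand setting is not given in the sources used here. The authors also deposited log2-scale rlog values made with DESeq2, used in 1 alternative, and depth-scaled counts, not used. Groups came from the labels, which number the Fgfr3-E12.5 libraries 2 and 3. No libraries agreed within sampling noise, and since separate litters are not stated for each library, p-values measure the spread between these libraries.

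Features that reached a CPM of 1 in 2 or more libraries (16708 of 30046, coding or not) were fitted with edgeR 4.0.16 (R 4.3.3), using TMM scaling, the quasi-likelihood test, no covariates and Benjamini-Hochberg adjustment over all of them. Standard errors are the log2 fold change divided by the square root of its F statistic. The fit was also run on simulated data with 200 changed features. That is far fewer than the 6612 called here, so the simulation does not test the fit under differences this broad. GENCODE M21 (GRCm38) gave types, coordinates and lengths, with 29996 identifiers found, 45 not found and 5 reporter sequences. RefSeq promoters were found for 8 of the 10 genes, not for H19 and Cdkn1c.

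The members and all lists were chosen with earlier results of these data known. Of each list, the text names genes past both thresholds, with the most abundant ones where fewer than 4 were, the 3 features closest to each member, and further genes of the lists for their role after values were seen. Alternatives were DESeq2 1.42.0 size factors and Wald test, library size alone, edgeR's exact test and glmTreat, limma 3.58.1 on rlog values, no filter, a CPM of at least 10 for all features or, as in the study, coding genes, the replicate number as a block, removal of GC and length trends, and each library left out.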

Additional observations from a re-analysis of the deposited data

How the results depend on the processing

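H19, Igf2, Peg3 and Cdkn1c kept their direction and call under every alternative in which they could be tested (15, 16, 16 and 16). Dlk1 could be tested in 12, and since it passed the filter only through the Fgfr3-E12.5 libraries and both higher minimums and the loss of either of these libraries removed it, this says nothing of its stability. Plagl1 was called under none of 16. Meg3 lost its call in 6 of 14, among them limma on rlog values (-0.92) and glmTreat against 2-fold (adjusted p = 0.268), and the cause was not tested. Mest turned to 0.11 without Fgfr3-E12.5 replicate 3. Ndn, at -0.06, turned to 0.0392 with library size alone, 0.0133 without the filter, 0.0223 with the replicate block, 0.04 without Dlx5-E12.5 replicate 1 and 0.24 without Fgfr3-E12.5 replicate 3. With a library left out, Mest ranged from -0.27 to 0.11 and Ndn from -0.36 to 0.24. Library size alone shifted the median of all features to 0.08.

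Fewer features are tested under a higher filter. Counts higher in Fgfr3-E12.5 cells (2851) were 1807 with a CPM of at least 10, 1669 for coding genes at that minimum and 1795 with glmTreat, and those higher in Dlx5-E12.5 cells (3761) were 1752 and 1333 at the higher minimum, so the share of calls higher in Fgfr3-E12.5 cells went from 43.1% to 55.6% for coding genes. Leaving out a library gave 2012 to 2908 and 3325 to 4014. Of the members, 1 instead of 2 was higher in Fgfr3-E12.5 cells at either higher minimum and without either Fgfr3-E12.5 library (range 1 to 2), because Dlk1 was then not tested, and 2 instead of 4 were higher in Dlx5-E12.5 cells for coding genes (3 to 5 with a library left out). Paternally expressed genes higher in Fgfr3-E12.5 cells went from 1 to 2 without GC and length trends, and those higher in Dlx5-E12.5 cells from 5 to 3, 1 and 3 with the higher minimum, its coding version and glmTreat. Maternally expressed genes went from 1 to 2 without GC and length trends and without Fgfr3-E12.5 replicate 3 (range 1 to 2), and from 2 to 0 with rlog values and glmTreat. With glmTreat, 2 of 4 cell cycle partners and 2 of 4 imprint factors stayed higher in Fgfr3-E12.5 cells. The 2 imprint factors higher in Dlx5-E12.5 cells became 0 with rlog values and glmTreat, and 1 with the higher minimum, without GC and length trends and without Fgfr3-E12.5 replicate 3 (range 1 to 2). Of 485 values of 31 called genes of the lists under the alternatives, 438 kept their call, 47 lost it and 0 reversed.

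The groups share replicate numbers 2 and 3, and deviations of same-numbered libraries from their group means had correlations of 0.046 and -0.036. With 2 Fgfr3-E12.5 libraries these deviations mirror each other, and differently numbered pairs gave -0.046 and 0.036. These values therefore cannot tell whether same-numbered libraries shared a litter or batch. With the replicate block, 2780 and 3732 features were called, and each of the 6 called members kept its call, with Meg3 at -1.14 and Cdkn1c at 2.88. Among named genes of the lists, Irs2 (0.89) and Igfbp6 (adjusted p = 0.114) lost theirs.

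The groups had 3 and 2 libraries, and Dlk1 had counts near the floor in Dlx5-E12.5 cells. What limited precision most was not compared.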
